A study of Homo sapiens with 8 samples.

Results

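ATF4 is a transcription factor whose mRNA is translated more when the translation factor eIF2 is phosphorylated by one of its kinases, such as GCN2 under amino acid shortage or PERK under endoplasmic reticulum stress. It switches on genes for amino acid synthesis, amino acid import and tRNA charging, and with them genes such as DDIT3, TRIB3 and PPP1R15A that limit growth or feed back on the response. Because the step under control is translation, the amount of ATF4 mRNA need not follow the amount of ATF4 protein. The genes described here are 54 known or proposed members of this response, found by symbol among the 58688 genes counted in 8 RNA-seq samples. They are 8 regulators, 5 stress effectors, 14 enzymes of amino acid and one-carbon synthesis, 9 amino acid transporters, 13 genes of tRNA charging and export and 5 genes of secreted or surface proteins. Members were chosen by their known roles, but with their log2 fold changes after Ponatinib and in the knockdowns already in view, so these changes describe the list and were not tested as a set.

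All samples are LM2 cells, derived from the human breast cancer line MDA-MB-231 for their spread to the lung. One set holds 2 samples treated with the vehicle DMSO and 2 samples treated with 1 µmol/L Ponatinib, a drug that inhibits the ABL kinases and further tyrosine kinases, for 6 h. The other set holds 4 single samples of cells that carry a lentiviral short hairpin RNA (shRNA) and were selected with puromycin, namely a scrambled shRNA (shCtrl), an ABL1 shRNA, an ABL2 shRNA and both shRNAs together, without treatment by a drug. Nothing in the labels says that samples of a group came from separate cultures, so p-values measure the spread between these samples only, which may be technical. Total counts ranged from 7568934 to 13010896 per sample, and 3 counts correspond to 0.231 to 0.396 CPM, a unit in which counts are scaled to equal library sizes. The DMSO samples correlated with r = 0.997 and the Ponatinib samples with r = 0.993 on the log2 CPM scale across 9421 genes, which are not independent replicates. The mesenchymal marker VIM was at 1417 to 2029 TPM (counts per exon length, scaled to a common total) in the 8 samples, while the hormone receptor genes ESR1 and PGR were at no more than 0.238 and at 0 TPM, respectively. Of the markers held to be low in this line, ERBB2 was at 17.2 to 24.9 TPM and EPCAM at 8.16 to 16.2 TPM. The sets differ in more than treatment, as 68 genes, none of them a member, had 0 counts in every shRNA sample and 100 or more in each of the other 4, so comparisons were made within each set only. Inside the deposited tables, the headers of shCtrl and ABL1 shRNA are swapped relative to the labels. ABL1 mRNA was at 190 normalized CPM under the shCtrl label, 72.7 under the ABL1 shRNA label, 202 under the ABL2 shRNA label and 109 for the double knockdown, and the labels were followed. ABL2 mRNA was at 236, 212, 93.5 and 148 normalized CPM in the same order.

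Many genes of this response carry a short element near their start site that dimers of ATF4 and a CCAAT/enhancer binding protein (C/EBP) can bind. The letters TGATGNAA were searched on both strands in RefSeq promoter windows of GRCh38.p14, from 250 bases before to 50 bases after each start site. Of the 54 members, 43 had at least 1 window, and 17 of these (39.5%) held a match, against 2.76% of 10483 genes with a window that were tested for Ponatinib. Counted by window, because genes with several start sites have more chances, the shares were 27.1% of 70 member windows and 2.01% of 15314. Windows of a gene can overlap and hold the same match, as in MTHFD1L, so this count can repeat a site. Matches are a description of the letters and not evidence of binding, and genes known from such elements were favoured by the choice of the list. Ligase genes had the highest share among the roles, with matches in 7 of 10 member tRNA ligases that had a window, in 0 of 6 other cytosolic ligases and in 1 of 14 mitochondrial ligases. The sequences around the match are shown for these 7 ligases and for 7 other members whose values are reported, read 5′ to 3′ on the gene's own strand, with the match in capitals. TTNCATCA is the same element read from the other strand.
AARS1 (chr16:70289675-70289704, minus strand): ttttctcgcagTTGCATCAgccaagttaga
GARS1 (chr7:30594834-30594863, plus strand): ttacgcggcgaTTTCATCAtgctccgagcc
NARS1 (chr18:57621804-57621833, minus strand): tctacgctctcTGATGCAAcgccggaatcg
MARS1 (chr12:57488053-57488082, plus strand): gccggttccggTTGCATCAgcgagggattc
IARS1 (chr9:92293692-92293721, minus strand): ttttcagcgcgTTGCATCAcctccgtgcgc
CARS1 (chr11:3057407-3057436, minus strand): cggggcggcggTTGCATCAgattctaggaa
TARS1 (chr5:33440956-33440985, plus strand): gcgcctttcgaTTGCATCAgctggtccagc
ASNS (chr7:97872458-97872487, minus strand): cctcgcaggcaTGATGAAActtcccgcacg
CHAC1 (chr15:40953251-40953280, plus strand): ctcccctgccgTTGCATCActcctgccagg
CEBPG (chr19:33374060-33374089, plus strand): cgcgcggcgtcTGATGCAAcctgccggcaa
JDP2 (chr14:75427995-75428024, plus strand): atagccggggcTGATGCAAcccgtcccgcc
SLC1A4 (chr2:64989381-64989410, plus strand): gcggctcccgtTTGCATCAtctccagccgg
SLC7A1 (chr13:29595663-29595692, minus strand): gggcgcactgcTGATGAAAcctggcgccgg
MTHFD1L (chr6:150866346-150866375, plus strand): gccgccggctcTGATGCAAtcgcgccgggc
The core was TTGCATCA or its reverse, TGATGCAA, in all of these but ASNS, GARS1 and SLC7A1. The other matches were in SLC1A5, SLC3A2 and FGF21. Members without a window were NUPR1, EIF4EBP1, PSPH, SHMT2, ALDH1L2, PYCR1, GPT2, SLC7A11, LARS1, YARS1 and VEGFA.

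The longer context is shown for ASNS, whose amino acid response element is the textbook case, and for CHAC1, where the match lies 209 bases before the start site. Each run is the 250 bases before the start site, with the match in capitals.
ASNS (chr7:97872409-97872658, minus strand): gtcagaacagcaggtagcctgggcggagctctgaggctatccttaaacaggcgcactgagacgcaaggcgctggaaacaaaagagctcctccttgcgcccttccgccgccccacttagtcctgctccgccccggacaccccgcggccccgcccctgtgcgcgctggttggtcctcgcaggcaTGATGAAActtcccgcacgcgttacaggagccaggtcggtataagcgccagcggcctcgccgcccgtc
CHAC1 (chr15:40953221-40953470, plus strand): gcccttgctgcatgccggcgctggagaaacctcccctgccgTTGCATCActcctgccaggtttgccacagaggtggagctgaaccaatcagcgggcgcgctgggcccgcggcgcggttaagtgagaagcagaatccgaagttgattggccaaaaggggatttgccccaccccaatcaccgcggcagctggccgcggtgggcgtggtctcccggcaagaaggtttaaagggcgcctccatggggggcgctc
In ASNS the match begins 68 bases before the start site.

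After Ponatinib, most of the response was higher than in DMSO. With edgeR's quasi-likelihood test and Benjamini-Hochberg adjustment over 16031 genes, called at an adjusted p under 0.05, 44 of the 51 members that could be tested rose and 2 fell, while 15.0% of all genes rose and 15.7% fell. A differentially expressed gene (DEG) was one past 2-fold with a raw p under 0.05, the study's thresholds. By these, 21 members were DEGs upward and none downward, beside 3.19% and 2.29% of all genes (511 and 367 genes). These are more genes than the paper reports as DEGs after Ponatinib, so the calls here are not the paper's set. The median log2 fold change was 0.77 over the tested members and -0.00 over all tested genes. Both Ponatinib samples lay above both DMSO samples for 46 members and below them for 3, beside 32.1% and 32.8% of all genes. Together the 54 members took 0.811% and 0.815% of all counts in the DMSO samples and 1.36% and 1.38% in the Ponatinib samples. The summed level of 12 marker genes of other cell types was 25.1 and 25.6 TPM in DMSO and 34.0 and 31.1 TPM after Ponatinib, most of it COL1A1, and its part in the result was not tested. The members that did not pass a test in either direction were ATF5, MTHFD1L, PYCR1, LARS1 and STC2. CBS, the first enzyme of transsulfuration, had at most 1 count in any sample, the liver hormone gene FGF21 at most 2, and the one-carbon enzyme gene ALDH1L2 3 to 11 in these 4 samples, so these 3 were not tested. By role, the median log2 fold change was 2.20 for the stress effectors, 1.35 for the secreted and surface genes, 1.34 for synthesis, 1.22 for the regulators, 0.88 for the transporters and 0.50 for tRNA charging and export.

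**Figure D1:**
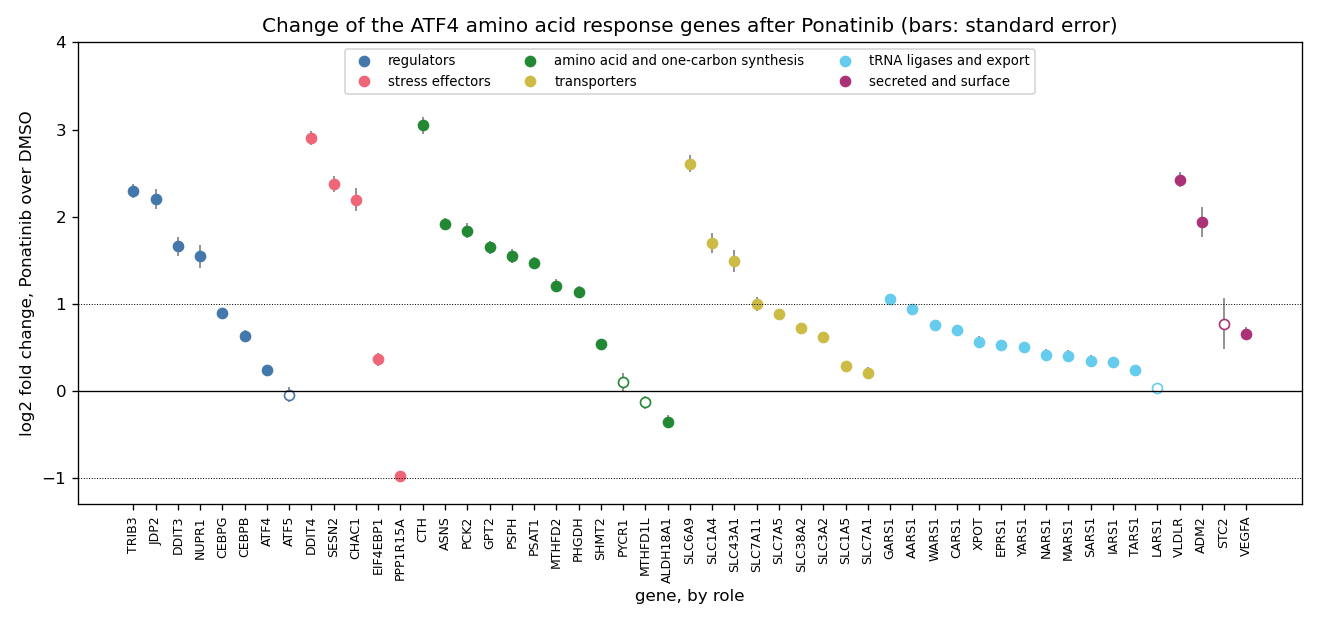
Log2 fold change of normalized CPM, Ponatinib over DMSO (y axis), for each of the 51 tested members (x axis), colored by role, with filled points for members past the test, bars for the standard error and dotted lines at 2-fold. CTH stands highest at 3.05 and PPP1R15A lowest at -0.98, and the tRNA charging and export genes lie between 0.03 and 1.06.

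Among the regulators, ATF4 itself changed little while most of its partners and targets rose by more. ATF4 (chromosome 22, 39519695 to 39522683, GRCh38) was at 377 and 392 normalized CPM in the DMSO samples and at 477 and 429 in the Ponatinib samples, a log2 fold change of 0.24 (SE 0.06, adjusted p = 0.0118, edgeR). The groups did not overlap, but the call was lost without either DMSO sample, where the log2 fold change was 0.21 without replicate 1 (adjusted p = 0.20, edgeR) and 0.27 without replicate 2 (adjusted p = 0.076, edgeR). The files also count 4 pseudogene copies of ATF4, with 1069 to 1567 counts together in these samples, and with their counts added the log2 ratio was 0.27. ATF5, a close relative of ATF4 under the same kind of translational control, was at 50.1 and 49.3 in DMSO and 51.7 and 44.1 after Ponatinib (log2 fold change -0.04, adjusted p = 0.757, edgeR). Its groups overlapped. TRIB3, a pseudokinase that binds ATF4 and restrains it, had the highest log2 fold change of the regulators, 2.29 (SE 0.07, adjusted p = 1.58e-11, edgeR), from 28.0 and 26.6 to 134 and 134 normalized CPM. JDP2, a basic leucine zipper repressor, went from 10.6 and 9.80 to 49.8 and 43.9, a log2 fold change of 2.20. DDIT3, which encodes the stress factor CHOP, went from 23.6 and 20.9 to 77.5 and 62.2, a log2 fold change of 1.66. On the annotation, 31.6% of the exon bases of DDIT3 are shared with other counted genes, the largest share of any member, mainly with MARS1 on the opposite strand, and whether the counting used strand is not stated. NUPR1, a small stress-induced chromatin protein, went from 11.9 and 9.29 to 31.0 and 31.3 normalized CPM (log2 fold change 1.54). The C/EBP partner genes rose by less, with CEBPG at 94.0 and 96.4 in DMSO and 174 and 179 after Ponatinib (log2 fold change 0.89), and CEBPB at 135 and 139 against 207 and 218 (log2 fold change 0.63). Other than for ATF5, no Ponatinib sample of a regulator fell within its DMSO range.

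Of the stress effectors, 4 rose and 1 fell. DDIT4, an inhibitor of the growth kinase complex mTORC1, lies on chromosome 10 from 72273919 to 72276036 and went from 57.0 and 69.5 to 469 and 475 normalized CPM, a log2 fold change of 2.90 (SE 0.08, adjusted p = 4.81e-12, edgeR), or 7.48-fold. SESN2, a leucine sensor that also restrains mTORC1, went from 16.7 and 15.3 to 82.1 and 83.9 (log2 fold change 2.37). CHAC1, which degrades glutathione, went from 7.86 and 10.0 to 42.7 and 38.3 (log2 fold change 2.20). These 3 genes were between 4.58-fold and 7.48-fold higher, with no overlap of the samples. EIF4EBP1, which encodes a repressor of cap-dependent translation, had a log2 fold change of 0.36. PPP1R15A (GADD34), which directs a phosphatase to eIF2 and so ends the response, was at 279 and 275 in DMSO and at 144 and 137 after Ponatinib, a log2 fold change of -0.98 (SE 0.06, adjusted p = 1.70e-08, edgeR). It was the member with the lowest log2 fold change, and both Ponatinib samples lay below both DMSO samples.

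In amino acid synthesis, 9 of 12 tested genes rose and 8 of them were DEGs. CTH, the second enzyme of transsulfuration, which makes cysteine, lies on chromosome 1 from 70411218 to 70439851. It was at 9.62 and 10.4 normalized CPM in DMSO and at 81.0 and 85.0 after Ponatinib, and its log2 fold change of 3.05 (SE 0.10, adjusted p = 1.39e-11, edgeR), or 8.29-fold, was the highest of all members. CBS, which precedes CTH in that pathway, had at most 1 count in any sample, as had its near-identical copy CBSL, and reads that fit both may be counted to neither, so its level is uncertain. ASNS, asparagine synthetase, went from 60.3 and 60.7 to 229 and 227 (log2 fold change 1.91). The pathway from glycolysis to serine rose at each of its 3 steps. PHGDH, its first enzyme, went from 71.2 and 77.7 to 166 and 161 normalized CPM (log2 fold change 1.14). PSAT1, the second, went from 254 and 256 to 721 and 695 (log2 fold change 1.47). PSPH, the last, went from 26.8 and 27.7 to 80.7 and 78.4 (log2 fold change 1.55). In the use of serine by mitochondria, the members split. SHMT2, which moves a carbon from serine to folate, had a log2 fold change of 0.54 and was not a DEG, and MTHFD2, the next enzyme, went from 69.7 and 65.0 to 163 and 149 (log2 fold change 1.21). MTHFD1L, which follows in the same pathway, was at 77.4 and 70.2 in DMSO and 68.1 and 66.7 after Ponatinib and did not pass the test (log2 fold change -0.13, adjusted p = 0.203, edgeR). The mitochondrial enzymes PCK2, which makes phosphoenolpyruvate, and GPT2, which makes alanine, both rose. PCK2 went from 18.9 and 18.4 to 65.1 and 68.8 (log2 fold change 1.84), and GPT2 from 42.6 and 45.3 to 133 and 143 (log2 fold change 1.65). The enzymes of proline synthesis did not rise. ALDH18A1, its first enzyme, was at 105 and 93.8 in DMSO and at 78.3 and 77.1 after Ponatinib, a log2 fold change of -0.35 (adjusted p = 0.00179, edgeR), and this call was lost without DMSO replicate 1 (log2 fold change -0.27, adjusted p = 0.087, edgeR). PYCR1, its last enzyme, was at 30.02 and 35.7 against 37.7 and 31.7 and did not pass the test (adjusted p = 0.553, edgeR).

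**Figure D2:**
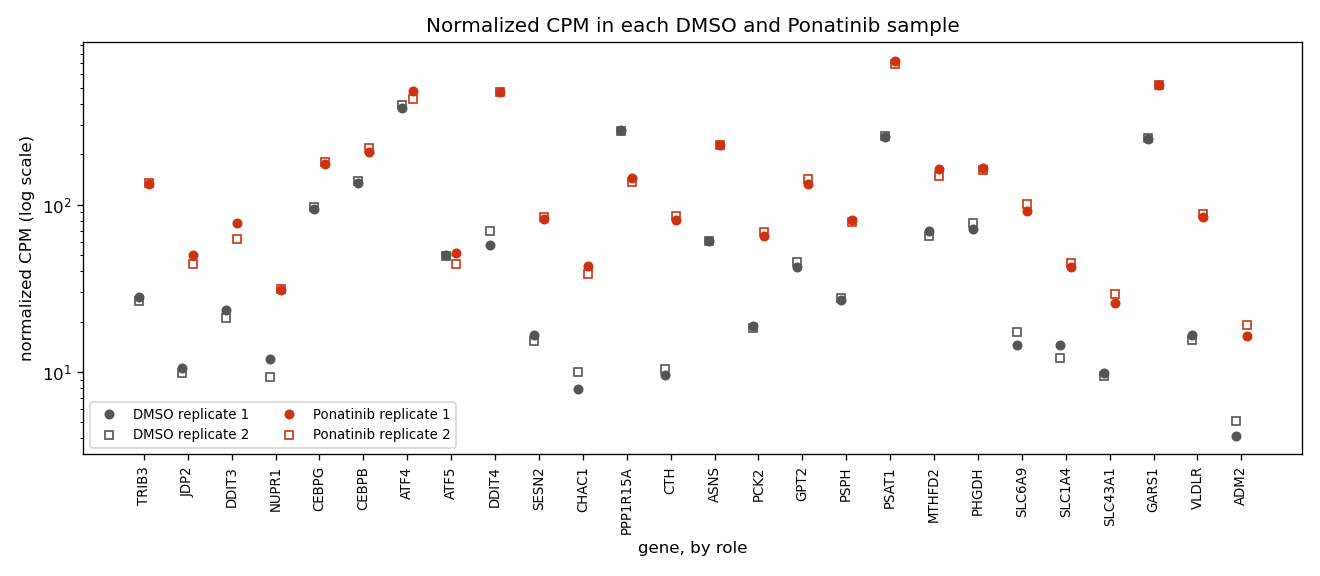
Normalized CPM on a log scale (y axis) in each of the 2 DMSO and 2 Ponatinib samples, 1 point per sample, for the regulators, the DEGs and PPP1R15A (x axis). The Ponatinib points of DDIT4 (469 and 475) and CTH (81.0 and 85.0) lie far above their DMSO points, those of ATF4 lie just above, and those of PPP1R15A lie below.

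All 9 transporters rose, with log2 fold changes from 0.21 to 2.61. SLC6A9 (GLYT1), a glycine importer on chromosome 1 from 43991500 to 44031467, went from 14.4 and 17.3 to 92.0 and 101 normalized CPM, a log2 fold change of 2.61 (SE 0.10, adjusted p = 5.89e-11, edgeR). SLC1A4, a carrier of neutral amino acids such as serine and alanine, went from 14.5 and 12.1 to 42.2 and 44.8 (log2 fold change 1.70), and SLC43A1, a carrier of large neutral amino acids, from 9.89 and 9.49 to 25.9 and 29.1 (log2 fold change 1.49). These were the 3 DEGs of the role. SLC7A11, the cystine importer, was just inside the 2-fold limit, at 397 and 412 in DMSO and 728 and 888 after Ponatinib (log2 fold change 1.00, SE 0.08, adjusted p = 2.13e-07, edgeR). The nearest member just past that limit was the glycine ligase GARS1, at 1.06. The Ponatinib samples of SLC7A11 stood further apart than the DMSO samples, and none overlapped. SLC7A5, which imports leucine in exchange for glutamine, and SLC3A2, the partner chain of SLC7A5 and SLC7A11, had log2 fold changes of 0.88 and 0.61. SLC38A2, the sodium-coupled importer SNAT2, had 0.72, and SLC1A5, a glutamine carrier, had 0.29. The arginine importer SLC7A1 had the lowest log2 fold change of the role, 0.21 (adjusted p = 0.0255, edgeR), from 301 and 307 to 332 and 372. Its call was lost with DESeq2's Wald test (DESeq2 adjusted p = 0.053) and without either DMSO sample.

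Genes of tRNA charging rose by small amounts that were alike between replicates. Aminoacyl-tRNA synthetases (tRNA ligases) join each amino acid to its tRNA, and XPOT exports tRNA from the nucleus. Of the 12 member ligases, 11 rose and 1 did not pass the test, with a median log2 fold change of 0.46, and XPOT rose with 0.57. GARS1, the ligase for glycine, lies on chromosome 7 from 30580533 to 30634033 and went from 246 and 251 to 517 and 516 normalized CPM, a log2 fold change of 1.06 (SE 0.06, adjusted p = 4.22e-09, edgeR). It was the one DEG among them, and the ligase for alanine, AARS1, came next at 0.94. LARS1, the ligase for leucine, was at 186 and 179 in DMSO and at 187 and 187 after Ponatinib (log2 fold change 0.03, adjusted p = 0.71, edgeR). The ligases WARS1 and CARS1, for tryptophan and cysteine, had 0.75 and 0.70, and the other 7 lay between 0.24 for TARS1 and 0.52 for EPRS1. The call of TARS1, the ligase for threonine, was lost without either DMSO sample.
The cytosolic ligases outside the list mostly had values below 0. Of these 8 genes, 1 rose (QARS1, log2 fold change 0.18) and 5 fell, namely FARSA (-0.65), VARS1 (-0.41), FARSB (-0.39), HARS1 (-0.20) and KARS1 (-0.19). The other 2 did not pass the test. The median log2 fold change of these 8 genes was -0.19. Of the 17 mitochondrial ligases, 1 rose and 4 fell, with a median of -0.10 and the lowest value in MARS2 (-1.18). Which cytosolic ligases are members was decided with these values known, so the contrast is a description. The element TGATGNAA was present in the window of 7 of 10 member ligases, as shown above, and of none of the 6 others. Over all roles it did not go with the larger changes, being in the window of 5 of 18 upward DEGs and of 11 of 23 tested members that were not DEGs, and in 3 of 14 of the other genes regulated by ATF4. Among the member ligases, WARS1 rose without a match in its window and TARS1 had one with the lowest log2 fold change of those that rose.

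**Figure D3:**
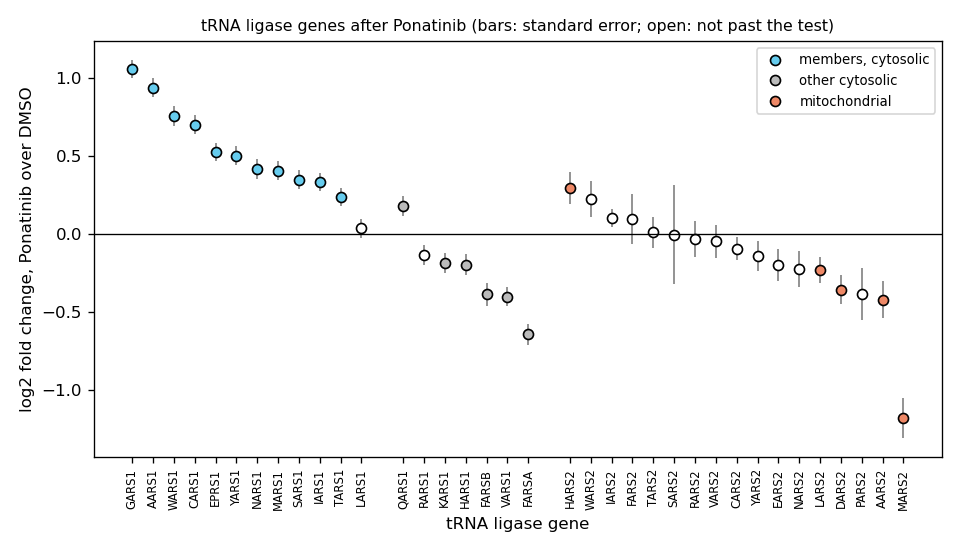
Log2 fold change, Ponatinib over DMSO (y axis), of member cytosolic ligases, 7 of the 8 other cytosolic ligases and mitochondrial ligases (x axis), with bars for the standard error and open points for genes that did not pass the test. Member ligases run from 0.03 to 1.06, and the other cytosolic ligases from -0.65 to 0.18.

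Of the 4 tested genes for secreted and surface proteins, 3 rose. VLDLR, the very low density lipoprotein receptor, lies on chromosome 9 from 2621182 to 2660056 and went from 16.5 and 15.6 to 84.9 and 87.6 normalized CPM (log2 fold change 2.42, adjusted p = 4.98e-11, edgeR). ADM2, a peptide hormone of the calcitonin family, went from 4.15 and 5.05 to 16.4 and 18.95 (log2 fold change 1.94, adjusted p = 6.11e-07, edgeR). VEGFA, the angiogenic growth factor, went from 119 and 132 to 187 and 210 (log2 fold change 0.66, adjusted p = 8.92e-06, edgeR). All 3 genes had Ponatinib samples above both DMSO samples. STC2, a stanniocalcin, had 17 to 32 counts in these samples, and its log2 fold change of 0.77 did not pass the test (adjusted p = 0.0596, edgeR).

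Further genes of the pathway, from lists written for comparison with earlier results known, were read in the same fit. Of 18 tested genes that ATF4 is also known to regulate, 15 rose, 7 of them as DEGs, and none fell, with a median log2 fold change of 0.75. INHBE, an inhibin chain, was at 0.177 and 0.202 normalized CPM in DMSO, under the level of 3 counts, and at 4.08 and 4.67 after Ponatinib. TSC22D3, also a glucocorticoid target, had a log2 fold change of 2.92, GDF15, a stress hormone, 2.11, and the autophagy kinase gene ULK1 1.81. The machinery upstream of ATF4 was read as 15 genes of eIF2, its kinases, its exchange factor, a phosphatase adaptor and regulators of GCN2. Of these, 2 rose (13.3%) and 4 fell (26.7%), beside 15.0% and 15.7% of all genes, with a median of -0.04. The kinase gene EIF2AK2 (0.31) and the eIF2 subunit gene EIF2S2 (0.30) rose. EIF2AK4, which encodes the amino acid sensor kinase GCN2, fell by 0.42 on the log2 scale (adjusted p = 0.000364, edgeR), and EIF2S1, the eIF2 subunit that is phosphorylated, fell by 0.48 (adjusted p = 2.61e-05, edgeR). EIF2AK3, which encodes PERK, had -0.07 (adjusted p = 0.758, edgeR). Genes of the IRE1 and ATF6 branches of the endoplasmic reticulum stress response were mixed, with 4 of 12 rising and 1 falling and a median of -0.01. HERPUD1 (1.32) and XBP1 (1.17) were DEGs, the chaperone gene HSPA5 rose by 0.50, and MANF fell by 0.36 on the log2 scale. Among amino acid transporters outside the list, 1 of 12 rose and 2 fell, with a median of -0.32. Among other genes of one-carbon metabolism, 1 of 8 rose and 1 fell (MTHFD1, -0.27).

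The members differ widely in level, compared here per length as TPM. In DMSO, ATF4 was the highest member at 487 ± 11.9 TPM (SD, n = 2), followed by PSAT1 at 383, SLC7A5 at 328 and TARS1 at 312, and the median member was at 51.9. The order depends on the length used, since with the longest transcript ATF4 (486) was followed by TARS1 (382), SARS1 (369) and SLC3A2 (368), with PSAT1 at 295 and SLC7A5 at 264. The highest log2 fold changes were mostly in members of lower level. CTH was at 13.7 ± 0.71 TPM and SLC6A9 at 9.98 ± 1.25 TPM (SD, n = 2 each), and 18 of the 21 upward DEGs were under the median level of the members, the others being DDIT4, at 98.8 ± 13.4 TPM (SD, n = 2), DDIT3 and PSAT1. Across the 51 tested members, Spearman's rho between log2 TPM in DMSO and the log2 fold change was -0.60, and across 15819 genes it was -0.26. Both measures use the same DMSO samples, so the relation is partly built in and is given as a description.

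**Figure D4:**
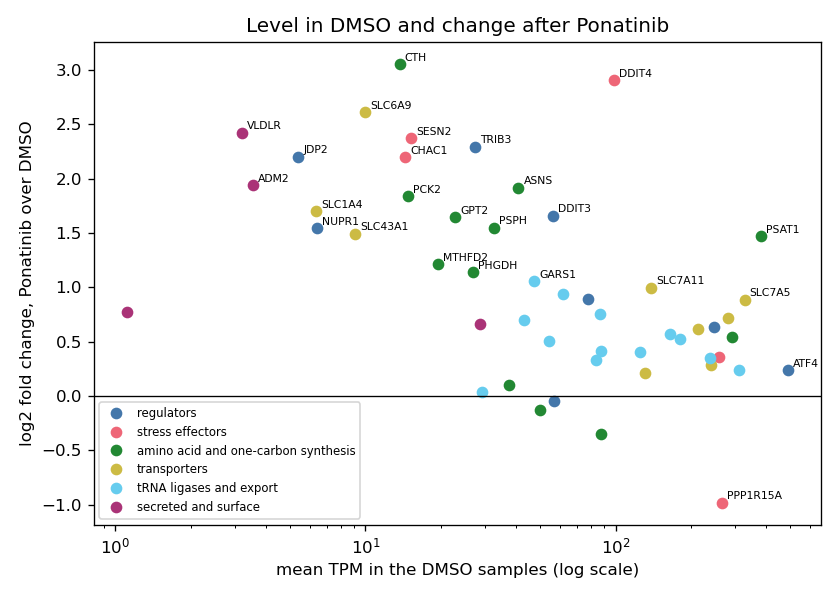
Mean TPM in the 2 DMSO samples on a log scale (x axis) against the log2 fold change, Ponatinib over DMSO (y axis), 1 point per tested member, colored by role. Members under 20 TPM lie mostly above a log2 fold change of 1, and ATF4, the highest at 487 TPM, has 0.24.

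In the knockdown libraries, changes of the same genes were small. Each knockdown is a single library and all 3 are compared with the same shCtrl library, so ratios have no replicate check and share any deviation of that control. Ratios of normalized CPM carry exact 95% intervals for counting error only. Past 2-fold with at least 10 counts in 1 of the libraries, 3 of 52 members were higher with ABL1 shRNA, beside 4.86% of all genes, 0 of 52 with ABL2 shRNA (4.64%) and 0 of 51 with both (4.47%). None was lower past 2-fold, beside 4.04%, 3.08% and 3.27% of all genes. With a lower limit of 1.5-fold, 10, 6 and 6 members were higher, beside 12.5%, 11.7% and 11.6% of all genes, and 0, 1 and 1 lower, beside 11.3%, 8.14% and 9.46%. Upward counts past 2-fold thus lay near the share of all genes with ABL1 shRNA, where 1 of the 3 rests on 19 counts or fewer, and downward counts lay under it in all 3. In direction alone, 42 of 52 members were above shCtrl with ABL1 shRNA (50.5% of all genes), 30 of 52 with ABL2 shRNA (49.3%) and 37 of 51 with both (50.0%). The median log2 ratios were 0.24, 0.09 and 0.10, while the medians of all genes lay between -0.01 and 0.00. This tilt was not particular to the members and was not shared by all genes regulated by ATF4. Of 17 such genes outside the list, 7, 7 and 6 were above shCtrl, with medians of -0.05, -0.09 and -0.14. Of 12 genes of the IRE1 and ATF6 branches, 11, 11 and 10 were above it, with medians of 0.63, 0.42 and 0.42. In all 3 knockdown libraries, 26 of 51 members were above shCtrl, beside 28.8% of all genes, and 7 were below it, beside 31.4%. The summed level of 12 marker genes of other cell types was 184 TPM in shCtrl and 61.8, 121 and 81.7 TPM with ABL1, ABL2 and both shRNAs, of which COL1A1 made up 173 TPM in shCtrl. Between 2 and 5 of the 12 were at 0 in these libraries, and the immune markers PTPRC and CD3E were at no more than 0.170 TPM in any sample. Without COL1A1 the sum was 11.2 TPM in shCtrl and 19.4, 22.6 and 21.0 TPM in the knockdowns. The endothelial markers CDH5 and VWF were at no more than 0.162 and 0.486 TPM in any sample. Beside COL1A1, the fibroblast markers PDGFRA and DCN were at no more than 0.0622 and 0.104 TPM. The endothelial marker PECAM1 was at 10.1 TPM in shCtrl and 15.3, 20.0 and 16.5 TPM in the knockdowns. The immune marker LYZ was at 0.391 TPM in shCtrl and 2.76, 1.62 and 3.21 TPM in the knockdowns. All samples are cultures of the LM2 line, so these sums were not read as shares of cell types. The source of these marker reads and the part of this difference in the ratios were not tested.

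The 3 members past 2-fold belong to different roles. SLC7A11, on chromosome 4 from 138164097 to 138242349, was at 94.4 normalized CPM in the shCtrl library and at 191, 87.9 and 139 in the ABL1, ABL2 and double libraries. Its ratios in these libraries were 2.02 (1.88 to 2.17), 0.931 (0.855 to 1.01) and 1.47 (1.36 to 1.59), so the ABL2 library alone was not above the control. ADM2 was at 3.78 in shCtrl and at 8.32, 5.40 and 7.40 in the ABL1, ABL2 and double libraries, with a ratio of 2.20 (1.53 to 3.21) for ABL1 shRNA. The ratio of ALDH1L2 with ABL1 shRNA, 2.78 (1.07 to 8.49), rests on 6 and 19 counts. In these low genes the interval is wide. CHAC1 and SHMT2 were past 1.5-fold in all 3 knockdowns. CHAC1 was at 3.34 normalized CPM in shCtrl and 6.09, 5.88 and 6.09 in the knockdowns, with ratios of 1.82, 1.76 and 1.82. SHMT2, with more counts, was at 185 in shCtrl and 294, 286 and 288 in the knockdowns, with ratios of 1.59 (1.503 to 1.67), 1.55 (1.46 to 1.63) and 1.56 (1.47 to 1.64). For PHGDH the ratios were 1.40, 1.46 and 1.502. These genes had similar ratios under each shRNA, whereas others differed between the libraries. MTHFD2 and SLC1A4 were highest with ABL1 shRNA, with ratios of 1.95 and 1.96 against 1.31 and 1.41 with ABL2 shRNA. VLDLR was at 43.7 in shCtrl, 41.4 with the ABL1 shRNA, 84.7 with the ABL2 shRNA and 44.01 with both, and its ratio of 1.94 (1.74 to 2.16) was seen with ABL2 shRNA alone.

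**Figure D5:**
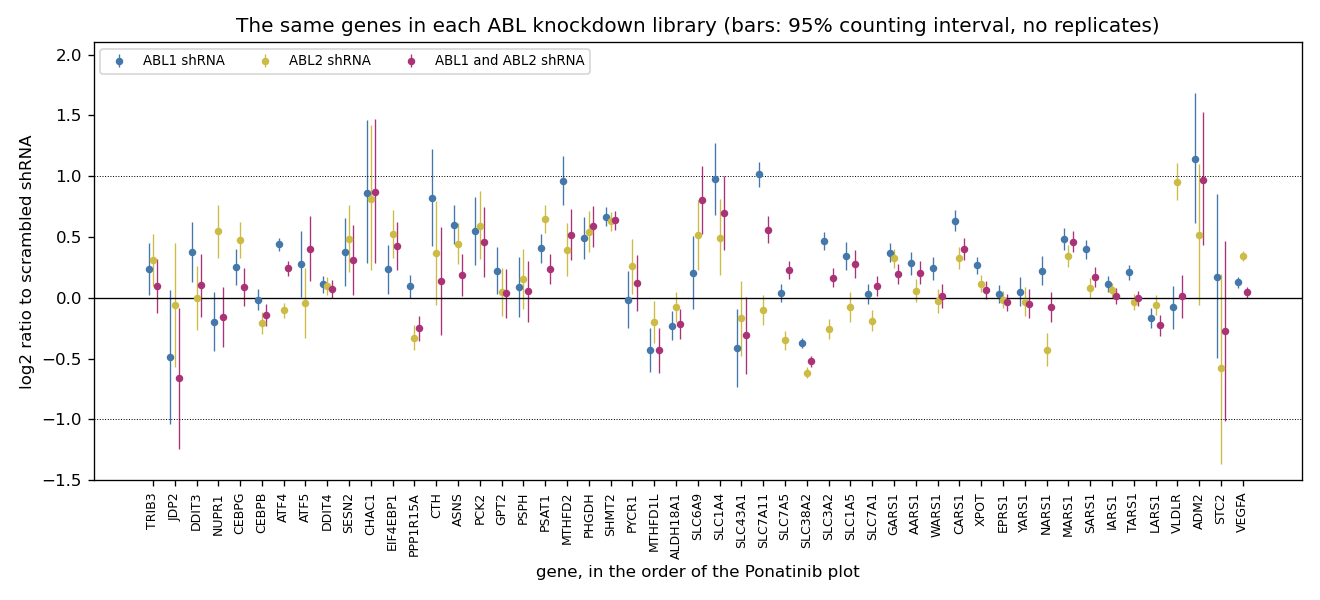
Log2 ratio to the scrambled shRNA library (y axis) for each member tested for Ponatinib (x axis), in the ABL1, ABL2 and double knockdown libraries, with bars for the exact 95% counting interval, dotted lines at 2-fold and no replicates. Most points lie within 2-fold, ADM2 and SLC7A11 cross it with ABL1 shRNA, and SLC38A2 lies below 0 in all 3.

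Some members with high fold changes after Ponatinib had ratios near 1 in the knockdowns. The knockdowns were partial. With both shRNAs, ABL1 mRNA was at 109 normalized CPM against 190 in shCtrl, and ABL2 mRNA at 148 against 236. How the remaining mRNA bears on the ratios was not tested. DDIT4, which was 7.48-fold higher after Ponatinib, was at 247 normalized CPM in shCtrl and at 267, 264 and 260 in the knockdowns, with ratios of 1.08, 1.07 and 1.05. Its control level was 447 TPM in shCtrl and 98.8 TPM in DMSO, in sets that differ in more than treatment. TRIB3 was at 28.0 in shCtrl and at 32.9, 34.6 and 29.9, with ratios of 1.18, 1.24 and 1.07. CTH had ratios of 1.76, 1.29 and 1.10, and only the first had an interval above 1 (1.34 to 2.34). SLC38A2, which rose after Ponatinib, was at 842 in shCtrl and at 651, 549 and 586 in the knockdowns, with ratios of 0.773, 0.652 and 0.696. JDP2 was also below shCtrl in each knockdown, at 5.71 against 4.08, 5.48 and 3.62 normalized CPM, but its interval excluded 1 only with both shRNAs (0.422 to 0.943). The other members below shCtrl in all 3 were CEBPB, MTHFD1L, ALDH18A1, SLC43A1 and LARS1. ATF4 was at 363 in shCtrl and at 491, 338 and 429 with ABL1, ABL2 and both shRNAs, with ratios of 1.35, 0.931 and 1.18, so that the libraries lay on both sides of the control. The 21 members that were DEGs after Ponatinib had median log2 ratios of 0.37, 0.45 and 0.19 in the ABL1, ABL2 and double knockdowns. Across the 51 members tested for Ponatinib, Spearman's rho between the log2 fold change after Ponatinib and the log2 ratio was 0.27, 0.52 and 0.27 for the ABL1, ABL2 and double knockdowns. These values are descriptions without a rho over all genes beside them, and the 3 ratios of a gene share the shCtrl library. ABL2 mRNA was itself lower after Ponatinib, at 334 and 305 normalized CPM in DMSO against 147 and 169 (log2 fold change -1.02, adjusted p = 8.56e-08, edgeR). ABL1 mRNA was at 165 and 162 against 182 and 193 (log2 fold change 0.19, adjusted p = 0.0287, edgeR). How these levels bear on the rho values was not tested. Whether the response to Ponatinib and to knockdown differ was not tested, because the treatments differ in time, in control and in replication.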

How the data were processed

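mRNA of LM2 cells (8 samples) was sequenced from libraries made with the NEBNext Ultra kit. The authors mapped the reads to hg38 with Bowtie and TopHat and deposited raw read counts per gene from HTSeq (version 0.6.0 in the submitters' processing notes), 1 file per sample, without normalization. The annotation and strand setting of the counting are not given in the sources used here. Summary rows of the counter were left out. In the shRNA files, reads in no gene or in more than 1 gene made up 15.7% to 16.0% of these and the assigned reads together, with no other class counted.

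Members and comparison lists were chosen with earlier results of these data known. Symbols were matched to Ensembl IDs (54836 of 58688 matched). Members named with their values are the regulators, the DEGs, members past 2-fold in a knockdown and the highest and lowest tested member of each role, and others, chosen after their values were seen, carry log2 fold changes or ratios. Ponatinib was compared with DMSO in 4 samples by edgeR 4.0.16 in R 4.3.3 (TMM, filterByExpr, prior count 0.125, quasi-likelihood test, Benjamini-Hochberg adjustment), and the script was tested on simulated data. Normalized CPM are counts over TMM-scaled library sizes. With 1 library each, the knockdowns have no test of their own, and their ratios have Clopper-Pearson intervals conditional on the summed counts. Calls for them from a fit of all 8 samples, which borrows the spread of the replicated groups, are given among the alternatives only. TPM used the exon union of GENCODE on GRCh38. Alternatives were other scalings, filters, tools (DESeq2 1.42.0), limits, a replicate block and the removal of each DMSO or Ponatinib sample in turn. The ATF4 total with its copies was added after seeing the data. Values of some genes on the comparison lists are not reported here.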

Additional observations from a re-analysis of the deposited data

How the results depend on the processing

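The median log2 fold change of the tested members after Ponatinib was 0.77, and it was 0.81 with library size only, 0.82 without a filter on low counts, 0.82 with DESeq2's Wald test, 0.81 in a fit of all 8 samples and 0.73 to 0.84 when 1 sample was left out. Leaving out a sample gave 40 to 44 members that rose, 1 or 2 that fell, 21 or 22 upward DEGs and 0 or 1 downward. With the DEG thresholds as the call, 21 rose and 0 fell. Over all genes, DESeq2's Wald test called 2568 genes against 4917, and 2800 and 3230 were called without DMSO replicates 1 and 2. ATF5 (log2 fold change -0.04) turned to 0.0016 with library size only and ranged from -0.16 to 0.054 when 1 sample was left out, and PYCR1 (0.10) ranged from -0.035 to 0.22, with neither past the test. STC2 passed with library size only (edgeR adjusted p = 0.047) and with at least 10 counts in every sample (0.039), and SLC1A5 was lost without DMSO replicate 2 (0.069). Same-numbered samples did not deviate together (r = -0.0199 across 9421 genes), and a replicate block gave the same 44, 2 and 21 members, a median of 0.77 and no changed call.

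For the knockdowns, a 1.5-fold limit gave 10 members higher with ABL1 shRNA, 6 higher and 1 lower with ABL2 shRNA and 6 higher and 1 lower with both. Library size only gave 2 past 2-fold upward with ABL2 shRNA and 1 with both. A fit of all 8 samples, which borrows the spread of the replicated groups and so assumes that the single libraries vary like them, called 20, 16 and 12 members higher, beside 10.6%, 7.89% and 8.41% of all genes, and 2, 4 and 2 lower, beside 11.4%, 7.68% and 9.42%. Median DMSO TPM was 63.1 with the length of the longest transcript. The causes were not tested. STC2 rests on 17 to 32 counts a sample.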
